A study of Mus musculus with 18 samples.

Results

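The genes described are 10 transcripts widely used to recognise macrophages in mouse tissue: Adgre1, Csf1r, Cd68, Lyz2, C1qa, Mrc1, Cd163, Msr1, Fcrls and Arg1. They were chosen by name, and each matched a single entry among the 46333 named genes of the count table. The series holds 18 RNA-seq libraries, each from the whole bladder of 1 female mouse (strain BALB/c, 8 weeks old), in 6 groups of 3. Mice ate either a vitamin A-enriched diet, given by the labels as 566081 UI of retinyl acetate per kg, or a normal diet. On each diet the groups were saline with collection 1 day later, an intraperitoneal injection of 150 mg/kg cyclophosphamide with collection 1 day later, and the same injection with collection 3 days later. Cyclophosphamide is an alkylating drug whose urinary breakdown product acrolein strips the bladder lining and causes an acute cystitis. The diet began before the injection in every group, and the saline groups were collected at 1 day only, so the comparison of 3 days with saline also differs in the day of collection.

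Macrophages are resident phagocytes that live in the connective tissue below the bladder epithelium and are replenished, after injury, from blood monocytes. Their survival depends on signalling through the receptor encoded by Csf1r, and they clear dead cells and debris through scavenger receptors, complement and lysosomal enzymes. The marker genes label different sides of this programme and are not all carried by the same macrophages, nor by macrophages alone: Lyz2 is also transcribed in monocytes and neutrophils and Arg1 in liver cells.

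All 10 genes were detected and all 10 passed the filter on low counts. Library totals ran from 19554132 to 34598952 counts. Smooth muscle markers summed to between 9734 and 30753 CPM (counts scaled by the library's total over named genes and multiplied by 1e6) and urothelial markers to between 4620 and 8408 CPM, so both tissues of the bladder wall were present in every library. Replicate 3 of the vitamin A group 1 day after cyclophosphamide had the highest share of mitochondrial counts at 3.82%, and replicate 2 of the vitamin A group 3 days after cyclophosphamide had the lowest mean correlation with its own group at 0.925. Results that changed when both were left out are given with and without them. Mice were kept 3 to a cage, and nothing in the labels ties a mouse to a cage, a batch or a sequencing run. Cyp26b1, the retinoic acid-degrading enzyme that retinoids induce, averaged 44.5 ± 13.2 CPM in vitamin A saline bladders and 4.68 ± 2.86 CPM in normal-diet saline bladders (SD, n = 3 each).

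Per unit of transcript length, Lyz2 and then C1qa had the highest mean levels in all 6 groups. In saline bladders Lyz2 averaged 260 ± 82.3 FPKM (length-scaled and depth-scaled fragment counts, as the authors computed it) on vitamin A and 193 ± 19.4 FPKM on the normal diet, and C1qa averaged 86.9 ± 26.9 FPKM on vitamin A and 63.3 ± 5.76 FPKM on the normal diet (SD, n = 3 each). The ranges of Lyz2 and C1qa overlapped in the vitamin A group 1 day after cyclophosphamide, where Lyz2 averaged 91.1 FPKM and C1qa 75.2 FPKM, and in no other group. Next in saline bladders came Csf1r, with a mean level of 14.1 FPKM on vitamin A and 13.1 FPKM on the normal diet, and after cyclophosphamide this place was held by Cd68 in all 4 groups, with mean levels between 26.4 and 28.5 FPKM. Msr1 and Arg1 were the lowest of the 10 in both saline groups, with mean levels of 0.446 and 0.189 FPKM on vitamin A. In the vitamin A group 1 day after cyclophosphamide the lowest place passed to Fcrls at 0.864 FPKM.

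A RefSeq promoter was matched by symbol for 5 of the 10 members, and all 5 are shown because these genes differed in direction after cyclophosphamide on vitamin A at 1 day: Cd68 and Cd163 rose, Lyz2 and Fcrls fell, and Mrc1 did not pass. Each is the 250 bases before the RefSeq transcription start in build GRCm38.p6, written along the gene's strand, a different build from the GRCm39 of the counts. Capitals mark GAGGAA on either strand, the core of many sites of the macrophage factor PU.1, and TGANTCA on either strand, the AP-1 type motif.
Cd68 (chr11:69666171-69666420, minus strand): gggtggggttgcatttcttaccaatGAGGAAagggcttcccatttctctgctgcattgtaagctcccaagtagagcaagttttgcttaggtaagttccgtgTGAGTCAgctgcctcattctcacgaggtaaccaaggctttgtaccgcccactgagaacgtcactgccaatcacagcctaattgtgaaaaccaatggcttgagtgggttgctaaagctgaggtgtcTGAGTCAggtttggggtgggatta
Mrc1 (chr2:14229164-14229413, plus strand): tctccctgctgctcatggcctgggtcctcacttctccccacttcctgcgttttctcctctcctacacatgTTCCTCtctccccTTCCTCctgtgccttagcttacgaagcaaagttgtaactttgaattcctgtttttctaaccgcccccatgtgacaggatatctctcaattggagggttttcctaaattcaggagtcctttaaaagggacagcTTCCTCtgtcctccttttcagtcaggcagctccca
Cd163 (chr6:124304401-124304650, plus strand): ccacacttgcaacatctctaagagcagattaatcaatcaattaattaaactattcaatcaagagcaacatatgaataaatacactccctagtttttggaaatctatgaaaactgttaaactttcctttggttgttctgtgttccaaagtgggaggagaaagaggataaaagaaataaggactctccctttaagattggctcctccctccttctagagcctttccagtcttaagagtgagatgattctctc
Lyz2 (chr10:117282273-117282522, minus strand): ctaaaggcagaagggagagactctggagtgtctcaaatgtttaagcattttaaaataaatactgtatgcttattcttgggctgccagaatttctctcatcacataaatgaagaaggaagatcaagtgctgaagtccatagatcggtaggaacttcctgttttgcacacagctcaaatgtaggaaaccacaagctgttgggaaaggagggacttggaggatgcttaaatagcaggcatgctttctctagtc
Fcrls (chr3:87263525-87263774, minus strand): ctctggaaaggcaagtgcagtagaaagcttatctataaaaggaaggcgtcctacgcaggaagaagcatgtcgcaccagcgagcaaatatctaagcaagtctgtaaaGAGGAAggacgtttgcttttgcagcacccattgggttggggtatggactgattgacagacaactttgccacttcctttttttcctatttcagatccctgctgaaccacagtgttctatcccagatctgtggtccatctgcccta
The Cd68 window held 1 GAGGAA match and 2 TGANTCA matches, the Mrc1 window 3 GAGGAA matches, the Fcrls window 1 GAGGAA match and the Cd163 and Lyz2 windows neither. Of 32851 promoters of this length, 7639 (23.25%) held GAGGAA and 2217 (6.749%) held TGANTCA. The matches describe the letters of these windows only.

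At 1 day after cyclophosphamide the marker genes split. On the vitamin A diet 4 of the 10 rose against saline, where 10.2% of the 19323 genes tested rose, and 3 fell, where 9.05% of all genes fell (edgeR quasi-likelihood test, Benjamini-Hochberg adjusted p under 0.05). Msr1, Cd68, Cd163 and Arg1 rose and Csf1r, Lyz2 and Fcrls fell, and the median log2 change was 0.26 over the 10 members and -0.01 over all genes. On the normal diet 3 of the 10 rose (Msr1, Cd68 and Mrc1), where 7.26% of all genes rose, and 0 fell, where 4.49% of all genes fell. No member fell at an unadjusted p under 0.05 or in DESeq2 on that diet. The median log2 change there was 0.50 over the members and -0.00 over all genes. The RNA comes from whole bladders, so more or fewer macrophages and more or less of a transcript in each of them cannot be told apart.

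By 3 days the balance had moved upward on both diets. On vitamin A 5 members rose against saline (Msr1, Cd68, Cd163, Mrc1 and C1qa), where 4.32% of all genes rose, and 1 fell (Fcrls), where 1.67% of all genes fell. Normal-diet bladders showed 6 rises (the same 5 genes and Lyz2), where 6.74% of all genes rose, and 0 fell, also at an unadjusted p under 0.05 and in DESeq2, where 3.30% of all genes fell. The median log2 change was 1.03 on vitamin A and 1.11 on the normal diet over the members, against 0.01 and -0.00 over all genes. With only the 6 libraries compared in the fit, 4 of the vitamin A calls at 3 days were lost: Mrc1 (adjusted p = 0.11), C1qa (0.171), Cd163 (0.0623) and Fcrls (0.248). Such fits added Adgre1 (0.00196) and Csf1r (0.0017) on the normal diet at 3 days, and at 1 day C1qa on the normal diet (0.0133) and Mrc1 on vitamin A (0.0474). Each diet's 1-day and 3-day comparisons share the same 3 saline mice.

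Comparing 3 days with 1 day after cyclophosphamide, 4 members rose on vitamin A (Lyz2, Csf1r, C1qa and Adgre1), where 2.55% of all genes rose. Normal-diet bladders showed 1 rise (Lyz2), where 1.22% of all genes rose. On neither diet did a member fall between the days, in edgeR at an unadjusted p under 0.05 or in DESeq2, where 1.69% of all genes fell on vitamin A and 0.217% on the normal diet. The median log2 difference over the members was 0.42 on vitamin A and 0.58 on the normal diet, against 0.01 and -0.01 over all genes. With only the 6 libraries compared in the fit, the vitamin A calls of Csf1r (adjusted p = 0.119), C1qa (0.140) and Adgre1 (0.367) were lost and that of Lyz2 was kept, while Csf1r (0.0033), C1qa (0.0127) and Adgre1 (0.0166) passed on the normal diet.

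**Figure D1:**
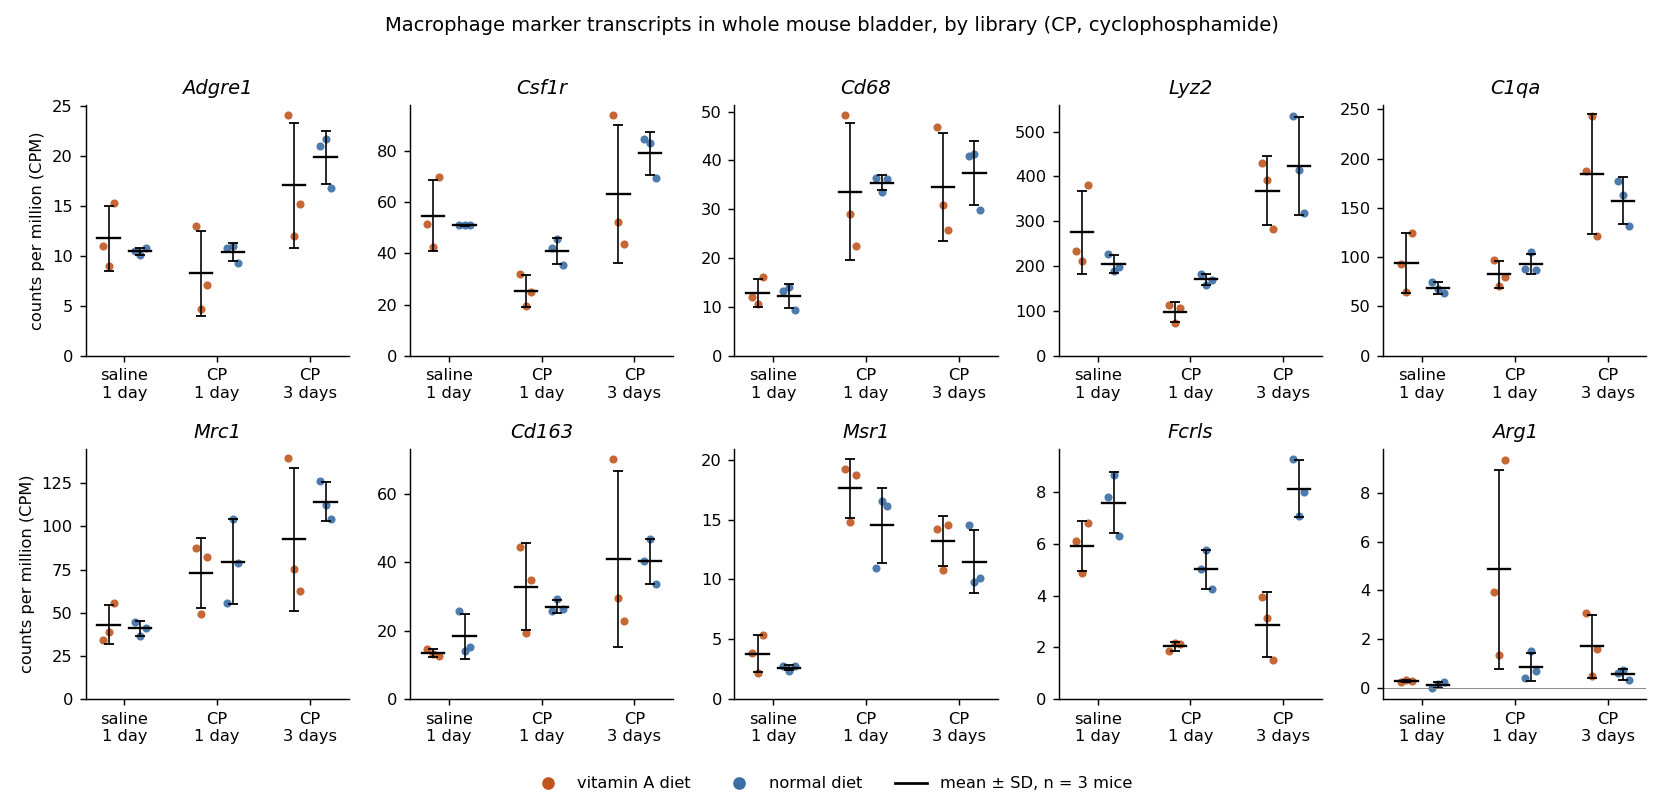
CPM (y axes, linear) of the 10 macrophage marker genes in each of the 18 bladder libraries, by treatment and day (x axes), with vitamin A libraries in orange to the left of normal-diet libraries in blue. Black bars are means and whiskers SD of 3 mice. Msr1 and Cd68 are higher after cyclophosphamide in every library than in any saline library, while Csf1r and Lyz2 are lowest in the 3 vitamin A libraries at 1 day.

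Csf1r (chr18:61238644-61264211 in GRCm39, plus strand) encodes the receptor for CSF1 and IL-34. On the vitamin A diet it had 51.5, 42.7 and 69.9 CPM after saline, 32.0, 19.3 and 24.8 CPM 1 day after cyclophosphamide and 94.2, 52.2 and 43.7 CPM at 3 days. Normal-diet bladders had 50.9, 51.0 and 51.3 CPM after saline, 42.0, 45.4 and 35.6 CPM at 1 day and 84.8, 83.2 and 69.4 CPM at 3 days. The 3 vitamin A libraries at 1 day lay below all 15 others. On vitamin A Csf1r fell 2.20-fold at 1 day against saline (log2 change -1.14, SE 0.23, adjusted p = 0.0015) and was 2.52-fold higher at 3 days than at 1 day (adjusted p = 0.00296). Its log2 change at 1 day on the normal diet was -0.32 (adjusted p = 0.398), and the 3-day libraries of that diet all lay above the 1-day ones without passing the threshold (log2 difference 0.89, adjusted p = 0.0529). That difference passed when replicate 3 of the vitamin A saline group, replicate 1 or 2 of the vitamin A 1-day group, or replicate 1 or 3 of the vitamin A 3-day group was left out (adjusted p between 0.0117 and 0.0486), since all groups share the estimate of spread. At 3 days against saline the log2 change was 0.19 on vitamin A (adjusted p = 0.701) and 0.58 on the normal diet (adjusted p = 0.116), the second of which passed without replicate 1 of the vitamin A 3-day group (adjusted p = 0.0402).

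Adgre1 (chr17:57665581-57790529, plus strand) encodes F4/80, an adhesion receptor of the macrophage surface. On vitamin A the values were 10.98, 8.95 and 15.3 CPM after saline, 13.001, 4.68 and 7.06 CPM at 1 day and 24.1, 12.0 and 15.2 CPM at 3 days after cyclophosphamide. The normal-diet values were 10.5, 10.1 and 10.8 CPM after saline, 10.8, 11.02 and 9.33 CPM at 1 day and 21.1, 21.8 and 16.8 CPM at 3 days. The normal-diet libraries at 3 days lay above all the others of that diet, whereas the vitamin A groups overlapped. At 3 days against 1 day Adgre1 rose 2.09-fold on vitamin A (log2 difference 1.06, SE 0.29, adjusted p = 0.0442). That call was lost with both libraries that stood apart left out (adjusted p = 0.102) and in 13 of 18 fits that left out 1 library (adjusted p between 0.0526 and 0.153), and it held only without replicate 2 or 3 of vitamin A saline, replicate 1 of vitamin A at 1 day, or replicate 2 or 3 of vitamin A at 3 days. Against saline at 3 days the log2 change was 0.52 on vitamin A (adjusted p = 0.34) and 0.87 on the normal diet (adjusted p = 0.062). The normal-diet value passed without replicate 1 or 2 of vitamin A at 1 day or replicate 1 or 2 of vitamin A at 3 days (adjusted p between 0.0234 and 0.0445), and with both libraries that stood apart left out (0.0419). At 1 day the log2 change was -0.55 on vitamin A (adjusted p = 0.205, or 0.0139 without replicate 1 of that group) and -0.01 on the normal diet.

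Cd68 (chr11:69555039-69556996, minus strand) encodes macrosialin, a glycoprotein of lysosomal and endosomal membranes in phagocytes. On the vitamin A diet this gene stood at 12.0, 10.5 and 16.0 CPM after saline, 49.3, 29.0 and 22.4 CPM at 1 day and 47.0, 30.8 and 25.8 CPM at 3 days after cyclophosphamide. In normal-diet bladders it stood at 13.2, 14.0 and 9.45 CPM after saline, 36.4, 33.6 and 36.3 CPM at 1 day and 41.0, 41.3 and 29.8 CPM at 3 days. All 12 cyclophosphamide libraries lay above all 6 saline libraries. Cd68 rose 2.55-fold on vitamin A (log2 change 1.35, SE 0.26, adjusted p = 0.00108) and 2.90-fold on the normal diet (log2 change 1.54, adjusted p = 0.000656) at 1 day. At 3 days the rises were 2.65-fold on vitamin A (adjusted p = 0.00188) and 2.95-fold on the normal diet (adjusted p = 0.000598). Between 1 and 3 days its level differed by log2 0.06 on vitamin A and 0.02 on the normal diet (SE 0.25 each).

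Lyz2 (chr10:117113446-117118177, minus strand) encodes lysozyme M, which cuts bacterial cell walls. Vitamin A bladders had 234, 211 and 381 CPM after saline, 113, 72.7 and 107 CPM at 1 day and 429, 393 and 282 CPM at 3 days after cyclophosphamide. Normal-diet libraries held 226, 188 and 198 CPM after saline, 183, 158 and 170 CPM at 1 day and 536, 414 and 318 CPM at 3 days. The 3 vitamin A libraries at 1 day were the lowest of the 18. On vitamin A Lyz2 fell 2.87-fold at 1 day (log2 change -1.52, SE 0.23, adjusted p = 0.000108) and was 3.83-fold higher at 3 days than at 1 day (log2 difference 1.94, adjusted p = 0.000185). The 1-day change on the normal diet was -0.26 on the log2 scale (adjusted p = 0.495), and Lyz2 was 2.39-fold higher at 3 days than at 1 day (adjusted p = 0.00635). At 3 days against saline it rose 1.99-fold on the normal diet (adjusted p = 0.00763, or 0.0655 without replicate 1 of the 3-day group), while on vitamin A the log2 change was 0.42 (adjusted p = 0.329). The near-identical paralog Lyz1 was counted separately at group means of 0.809 to 4.25 CPM, and reads that the pair share leave both values uncertain.

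C1qa (chr4:136623227-136626155, minus strand) encodes a chain of C1q, which starts the classical complement pathway and tags debris for uptake. In vitamin A bladders it stood at 92.8, 64.5 and 125 CPM after saline, 96.8, 70.5 and 80.1 CPM at 1 day and 188, 243 and 121 CPM at 3 days after cyclophosphamide. On the normal diet it had 75.1, 67.2 and 63.7 CPM after saline, 88.0, 105 and 86.9 CPM at 1 day and 178, 163 and 131 CPM at 3 days. The normal-diet groups did not overlap with each other, and at 3 days replicate 3 of vitamin A lay below the highest vitamin A saline library. At 3 days against saline C1qa rose 1.97-fold on vitamin A (log2 change 0.97, SE 0.23, adjusted p = 0.0152) and 2.20-fold on the normal diet (adjusted p = 0.00381). The vitamin A call was lost without replicate 1 or 2 of the saline group (adjusted p = 0.0532 and 0.0977), without replicate 2 of the 3-day group (0.0800) and with both libraries that stood apart left out (0.0860). At 3 days it was 2.28-fold higher than at 1 day on vitamin A (adjusted p = 0.00731, or 0.0996 with both libraries that stood apart left out), while the normal-diet difference was log2 0.70 (adjusted p = 0.182). At 1 day against saline its log2 change was -0.22 on vitamin A (adjusted p = 0.56) and 0.44 on the normal diet (adjusted p = 0.242).

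Msr1 (chr8:39996284-40095790, minus strand) encodes the class A scavenger receptor, which binds modified lipoproteins and dead-cell ligands. Vitamin A libraries held 3.83, 2.22 and 5.38 CPM after saline, 19.3, 14.8 and 18.8 CPM at 1 day and 14.2, 10.8 and 14.5 CPM at 3 days after cyclophosphamide. Normal-diet bladders had 2.78, 2.39 and 2.74 CPM after saline, 10.9, 16.5 and 16.1 CPM at 1 day and 14.5, 9.82 and 10.1 CPM at 3 days. Every cyclophosphamide library exceeded every saline library. At 1 day Msr1 rose 4.53-fold on vitamin A (log2 change 2.18, SE 0.27, adjusted p = 1.81e-05) and 5.49-fold on the normal diet (log2 change 2.46, SE 0.28, adjusted p = 1.88e-05). At 3 days it rose 3.43-fold on vitamin A (adjusted p = 0.000277) and 4.18-fold on the normal diet (adjusted p = 5.89e-05). On vitamin A the 3-day libraries lay below the 1-day ones, with a log2 difference of -0.40 that did not pass (adjusted p = 0.417).

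Mrc1 (chr2:14234225-14336834, plus strand) encodes the mannose receptor CD206, an endocytic receptor of tissue macrophages. On vitamin A it had 34.4, 38.7 and 55.9 CPM after saline, 87.3, 49.5 and 82.2 CPM at 1 day and 140, 75.4 and 62.4 CPM at 3 days after cyclophosphamide. The normal-diet values were 44.9, 36.6 and 41.3 CPM after saline, 55.5, 105 and 78.6 CPM at 1 day and 126, 113 and 104 CPM at 3 days. Both cyclophosphamide groups lay above saline on the normal diet, and on vitamin A the 3-day group did. At 3 days Mrc1 rose 2.13-fold on vitamin A (adjusted p = 0.0173) and 2.69-fold on the normal diet (log2 change 1.43, SE 0.27, adjusted p = 0.0018). The vitamin A call was lost without replicate 1 or 2 of saline (adjusted p = 0.0925 and 0.0892), without replicate 1 of the 3-day group (0.0808) and with no filter on low counts (0.0748). At 1 day it rose 1.94-fold on the normal diet (adjusted p = 0.025), a call that was lost without any of the 3 saline libraries (adjusted p = 0.0551, 0.0933 and 0.0824), without replicate 2 or 3 of the 1-day group (0.134 and 0.0658), with no filter (0.0801) and on the FPKM values (0.0517 and 0.0565). On vitamin A the 1-day log2 change was 0.74 (adjusted p = 0.0585), and it passed in DESeq2 (0.0323) and without replicate 3 of saline, replicate 2 of that group, replicate 1 of the normal-diet 1-day group, or replicate 1 or 3 of the vitamin A 3-day group (0.0267 to 0.0466).

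Cd163 (chr6:124281596-124307488, plus strand) encodes the receptor that takes up haptoglobin-bound haemoglobin. On vitamin A the values were 14.6, 13.1 and 12.5 CPM after saline, 44.5, 19.3 and 34.7 CPM at 1 day and 70.3, 29.5 and 22.8 CPM at 3 days after cyclophosphamide. In normal-diet bladders it stood at 25.9, 14.2 and 15.1 CPM after saline, 25.8, 29.2 and 26.2 CPM at 1 day and 40.4, 46.7 and 33.6 CPM at 3 days. Both vitamin A groups lay above their saline group, and on the normal diet replicate 1 of saline overlapped the 1-day group. On vitamin A Cd163 rose 2.38-fold at 1 day (adjusted p = 0.0125) and 2.97-fold at 3 days (log2 change 1.57, SE 0.33, adjusted p = 0.00663, or log2 0.98 with an adjusted p of 0.0371 without replicate 1 of the 3-day group). The 1-day call was lost without replicate 3 of saline (adjusted p = 0.0531), replicate 1 of the 1-day group (0.0575) or the filter on low counts (0.0626). On the normal diet it rose 2.11-fold at 3 days (adjusted p = 0.0448), a call close to the threshold that was lost in 13 of 18 fits leaving out 1 library (adjusted p between 0.0505 and 0.176). It held only without replicate 1 of normal saline, replicate 1 or 2 of vitamin A at 1 day, or replicate 1 or 3 of vitamin A at 3 days, and was lost with both libraries that stood apart left out (0.0629), with upper quartile scaling (0.0509), with no filter (0.161) and on the FPKM values (0.0587 and 0.0652). At 1 day the normal-diet log2 change was 0.56 (adjusted p = 0.301). A predicted gene on the opposite strand, Gm52877, overlaps the locus with 26 to 194 counts, and whether reads were assigned by strand is not given in the sources used here.

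Fcrls (chr3:87158043-87171060, minus strand) encodes an Fc receptor-like scavenger protein, known in mice from microglia and from some macrophages outside the brain. On the vitamin A diet this gene stood at 6.10, 4.86 and 6.79 CPM after saline, 1.84, 2.16 and 2.14 CPM at 1 day and 3.96, 3.15 and 1.504 CPM at 3 days after cyclophosphamide. Normal-diet libraries held 7.81, 8.65 and 6.31 CPM after saline, 5.02, 5.77 and 4.26 CPM at 1 day and 9.29, 7.09 and 8.00 CPM at 3 days. On vitamin A every cyclophosphamide library lay below every saline library. It fell 2.94-fold there at 1 day (log2 change -1.56, SE 0.31, adjusted p = 0.00138) and 2.08-fold at 3 days (log2 change -1.06, SE 0.30, adjusted p = 0.0396). The 3-day call was lost without any of the 3 vitamin A saline libraries (adjusted p = 0.115, 0.0563 and 0.126), replicate 1 or 2 of normal saline (0.0551 and 0.0513), replicate 3 of vitamin A at 3 days (0.135) or replicate 3 of the normal diet at 3 days (0.0541). Its log2 change on the normal diet was -0.60 at 1 day, with all 3 libraries below saline (adjusted p = 0.202), and 0.04 at 3 days (adjusted p = 0.952).

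Arg1 (chr10:24791105-24803368, minus strand) encodes arginase 1, which turns arginine into ornithine and urea and is raised in alternatively activated mouse macrophages. It was the scarcest member: on vitamin A it had 8, 8 and 7 counts after saline, 81, 26 and 188 counts at 1 day and 74, 12 and 51 counts at 3 days after cyclophosphamide. On the normal diet it had 0, 3 and 8 counts after saline, 8, 37 and 17 counts at 1 day and 21, 24 and 9 counts at 3 days. The 0 of replicate 1 of normal saline allows a level of up to 0.146 CPM, taking 3 counts as the limit. On the CPM scale the vitamin A libraries had 3.93, 1.34 and 9.35 CPM at 1 day, all above the 0.232, 0.311 and 0.292 CPM of their saline group. On vitamin A Arg1 rose 16.9-fold at 1 day with a wide error (log2 change 4.08, SE 0.84, adjusted p = 0.00199). Without replicate 3 of the 1-day group the log2 change was 3.18 (adjusted p = 0.0169), and leaving out 1 library gave 3.18 to 4.52. The other changes against saline did not pass, at log2 2.59 on the normal diet at 1 day (adjusted p = 0.0646), 2.56 on vitamin A at 3 days (0.0719) and 1.91 on the normal diet at 3 days (0.199), although every cyclophosphamide library exceeded its diet's saline libraries. The change on the normal diet at 1 day and that on vitamin A at 3 days passed in DESeq2 (adjusted p = 0.0201 and 0.0160), without replicate 2 of vitamin A at 1 day (0.0448 and 0.0484), without replicate 2 of vitamin A at 3 days (0.0387 and 0.0299) and with both libraries that stood apart left out (0.0288 and 0.0234).

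**Figure D2:**
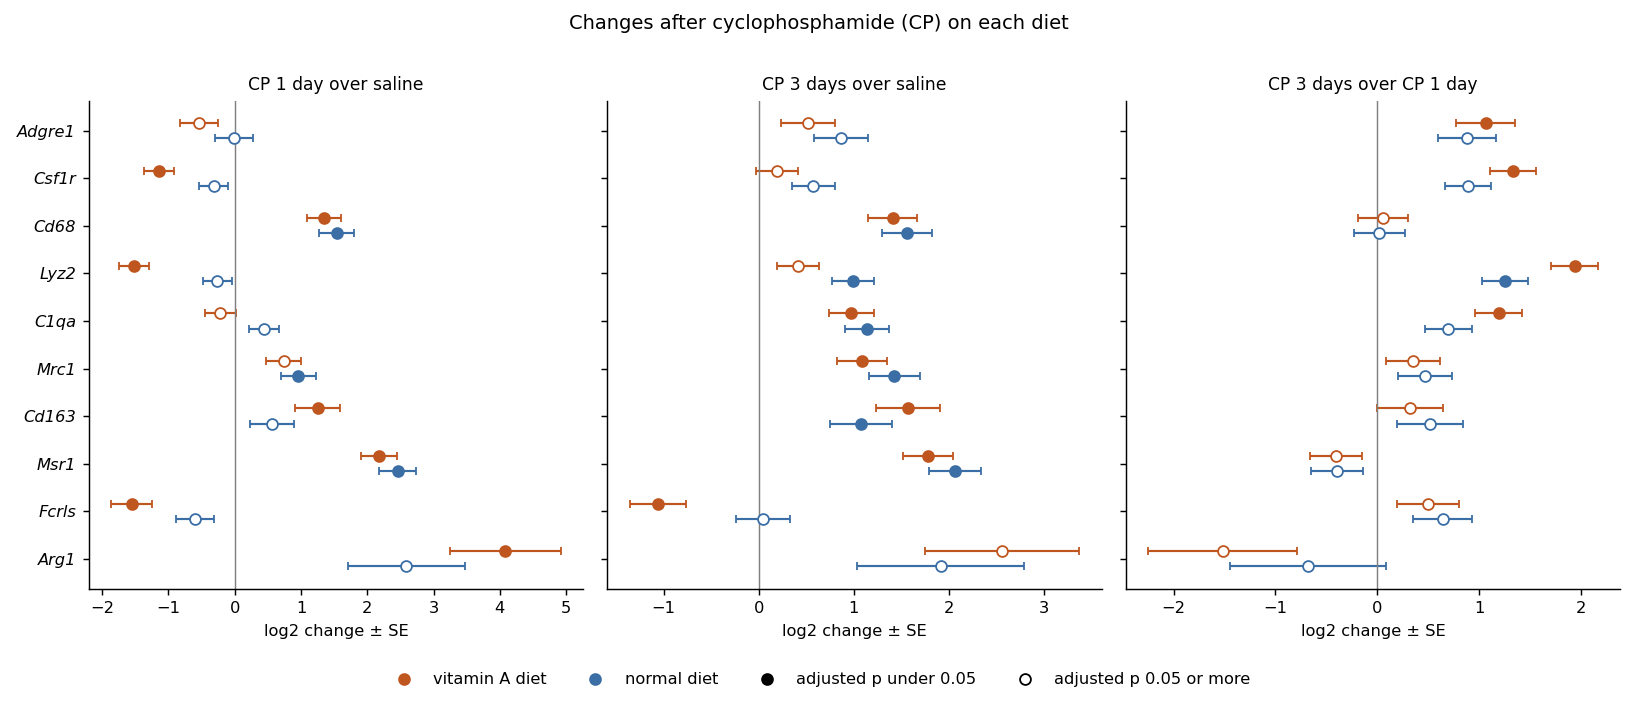
Log2 change with its standard error (x axes) of each marker gene (y axis) for cyclophosphamide at 1 day over saline, at 3 days over saline and at 3 days over 1 day, with vitamin A in orange above the normal diet in blue. Filled symbols have an adjusted p under 0.05. Csf1r, Lyz2 and Fcrls lie left of 0 on vitamin A at 1 day, at -1.14, -1.52 and -1.56, while Msr1 and Cd68 lie right of 0 on both diets and at both days.

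The proportions between the markers changed with treatment. Taking the count of each gene over the count of Csf1r in the same library, which needs no scaling between libraries, the mean log2 ratio of Msr1 on vitamin A was -3.90 ± 0.31 after saline, -0.51 ± 0.19 at 1 day and -2.19 ± 0.57 at 3 days (SD, n = 3 each). The Msr1 ratio on the normal diet was -4.27 ± 0.12 after saline, -1.51 ± 0.40 at 1 day and -2.80 ± 0.27 at 3 days. On each diet the 3 groups did not overlap, and the 1-day libraries had the highest ratio. The Cd68 ratio followed the same order, at -2.08 ± 0.06, 0.35 ± 0.43 and -0.84 ± 0.14 on vitamin A and -2.08 ± 0.31, -0.21 ± 0.23 and -1.09 ± 0.11 on the normal diet. Mrc1 stood at -0.35 ± 0.22, 1.51 ± 0.19 and 0.54 ± 0.03 relative to Csf1r on vitamin A, and at -0.32 ± 0.15, 0.91 ± 0.45 and 0.53 ± 0.08 on the normal diet. Lyz2 stayed closer to Csf1r, with mean log2 ratios between 1.95 and 2.60 in the 6 groups. The Fcrls ratio was lowest on vitamin A at 3 days, at -4.48 ± 0.41, against -3.28 ± 0.23 on the normal diet at 3 days, without overlap. A ratio also moves with Csf1r itself. Csf1r averaged 54.7 CPM after saline, 25.4 CPM at 1 day and 63.4 CPM at 3 days on vitamin A. On the normal diet it averaged 51.0, 41.0 and 79.1 CPM in the same order. The CPM means of Cd68 and Mrc1 were higher at 3 days than at 1 day on both diets, although their ratios were highest at 1 day. Those of Msr1 were lower at 3 days. These ratios are a description of the libraries and were not tested.

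**Figure D3:**
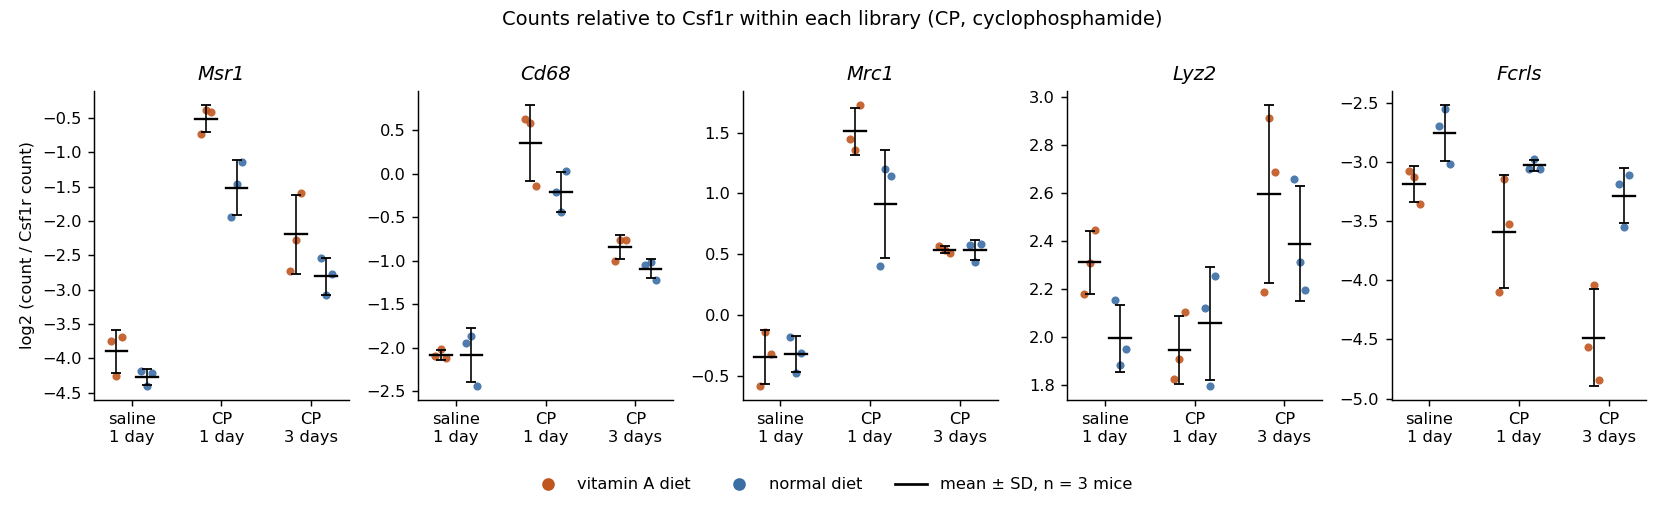
Log2 of the count of Msr1, Cd68, Mrc1, Lyz2 and Fcrls over the count of Csf1r in the same library (y axes), by treatment and day (x axes), vitamin A in orange to the left of the normal diet in blue, with means and SD of 3 mice. The means of Msr1, Cd68 and Mrc1 relative to Csf1r are highest at 1 day on both diets, at -0.51 for Msr1 on vitamin A and -1.51 on the normal diet, while the Mrc1 libraries of the normal diet overlap between 1 day (0.40 to 1.2014) and 3 days (0.44 to 0.59). The mean CPM of Csf1r itself is lowest at 1 day on both diets.

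Over the 18 libraries the log2 CPM of Csf1r varied together with that of Lyz2 (Pearson r = 0.93) and Adgre1 (r = 0.89), Cd68 with Msr1 (r = 0.88) and Mrc1 with Cd163 (r = 0.88). Csf1r was hardly related to Cd68 (r = 0.03) or Msr1 (r = -0.25) across all libraries. Within groups, using deviations from the group means, Csf1r and Cd68 did vary together (r = 0.72), and Csf1r and Msr1 less so (r = 0.43). Fcrls and Arg1 ran in opposite directions over the 18 libraries (r = -0.72), and within groups their r was -0.08. These coefficients describe libraries that share group structure and carry no test.

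Likeness was measured against 13743 other genes whose log2 CPM averaged 1 or more, and those with the pattern most like each member over the 18 libraries are named by Pearson correlation, as a description. The pattern of C1qa was closest to C1qc (r = 0.95), a partner chain of the same C1q molecule, followed by Cfp (r = 0.93) and Tyrobp (r = 0.90). Csf1r was closest to Selenop (r = 0.93), Igsf10 and Cybb, and Lyz2 to Selenop (r = 0.94), Pld4 and Apoe. Cd68 was closest to the lysosomal protease gene Lgmn (r = 0.94), then Ednra and Eda2r, and Mrc1 to Laptm5 (r = 0.95), Oas2 and Eda2r. Msr1 was closest to the monocyte chemoattractant Ccl7 (r = 0.97), then Ms4a6d and Fignl1. Arg1 was closest to Il4ra (r = 0.88), a chain of the interleukin-4 receptor, then Clip4 and Slc39a6. Fcrls was closest to Arhgap25 (r = 0.91), then St3gal6 and Hnmt. Adgre1 was closest to Pcsk5 (r = 0.93), then Myo1f and Fbln2, and Cd163 to Rab31 (r = 0.91), then Cd109 and Ednrb.

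Between the diets no member passed the threshold after adjustment in edgeR in any of the 3 conditions. At 1 day 0 of 10 passed in edgeR, where 0.466% of all genes did, 4 had an unadjusted p under 0.05, where 11.1% of all genes did, and DESeq2 called 3. Fcrls had 1.84, 2.16 and 2.14 CPM on vitamin A, against 5.02, 5.77 and 4.26 CPM on the normal diet, without overlap (log2 difference -1.30, SE 0.31, unadjusted p = 0.000471, adjusted p = 0.0695). Its adjusted p was 0.00596 in DESeq2, 0.0494 without replicate 2 and 0.0225 without replicate 3 of vitamin A at 3 days. Lyz2 at 113, 72.7 and 107 CPM on vitamin A lay below its 183, 158 and 170 CPM on the normal diet (log2 difference -0.82, SE 0.22, unadjusted p = 0.00181, adjusted p = 0.121, and 0.0325 in DESeq2). Csf1r was 1.63-fold lower on vitamin A without overlap (unadjusted p = 0.00554, adjusted p = 0.184). Arg1 was 5.58-fold higher on vitamin A with overlapping libraries (log2 difference 2.48, SE 0.77, unadjusted p = 0.00446, adjusted p = 0.167, and 0.0325 in DESeq2). The Arg1 difference was log2 1.58 without replicate 3 of vitamin A (adjusted p = 0.663) and 3.13 without replicate 2 of the normal diet (0.18). In the authors' deposited table of this comparison, which lists features with an unadjusted p under 0.05, the log2 difference of vitamin A over normal was -0.82 for Lyz2 (adjusted p = 0.000716), 2.51 for Arg1 (0.0158), -0.71 for Csf1r (0.0419) and -1.30 for Fcrls (0.0702). The remaining 6 members overlapped between the diets at 1 day.

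At 3 days 0 of 10 passed in edgeR, where 0.00518% of all genes did. Of the members 2 had an unadjusted p under 0.05, where 3.76% of all genes did, and DESeq2 called 1. Fcrls had 3.96, 3.15 and 1.504 CPM on vitamin A, against 9.29, 7.09 and 8.00 CPM on the normal diet, again without overlap (log2 difference -1.45, SE 0.30, unadjusted p = 0.000119, adjusted p = 0.36, and 0.00354 in DESeq2). In the authors' deposited table its log2 difference was -1.44 (adjusted p = 0.619). Arg1 had 74, 12 and 51 counts on vitamin A, against 21, 24 and 9 counts on the normal diet, with overlap (log2 difference 1.64, unadjusted p = 0.044, adjusted p = 0.994).

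In saline bladders 0 of 10 passed in edgeR, where 0.0104% of all genes did, 0 had an unadjusted p under 0.05, where 3.78% of all genes did, and DESeq2 called 0. The groups overlapped for all 10 members. The largest log2 differences of vitamin A over the normal diet among members with at least 38 counts in every library were 0.54 for Msr1 (SE 0.27), 0.47 for C1qa (SE 0.23) and 0.44 for Lyz2 (SE 0.22).

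Whether cyclophosphamide acted differently on the diets was tested as an interaction. At 1 day 0 of 10 members and 0 of all genes passed in edgeR, 3 members had an unadjusted p under 0.05, where 7.79% of all genes did, and DESeq2 called 1. For Lyz2 the cyclophosphamide change was lower on vitamin A than on the normal diet by log2 -1.26 (SE 0.32, unadjusted p = 0.000844, adjusted p = 0.2), and DESeq2 gave an adjusted p of 0.0356. The interaction was -0.82 for Csf1r (unadjusted p = 0.0179, adjusted p = 0.503) and -0.96 for Fcrls (unadjusted p = 0.0346, adjusted p = 0.593). The falls that passed on vitamin A alone were therefore not shown to differ between the diets by the edgeR test. For the change between 1 and 3 days, 0 members and 0 of all genes passed the interaction in edgeR, 1 member had an unadjusted p under 0.05, where 8.96% of all genes did, and DESeq2 called 0 members. That member was Lyz2, at log2 0.68 (unadjusted p = 0.0435, adjusted p = 0.537).

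**Figure D4:**
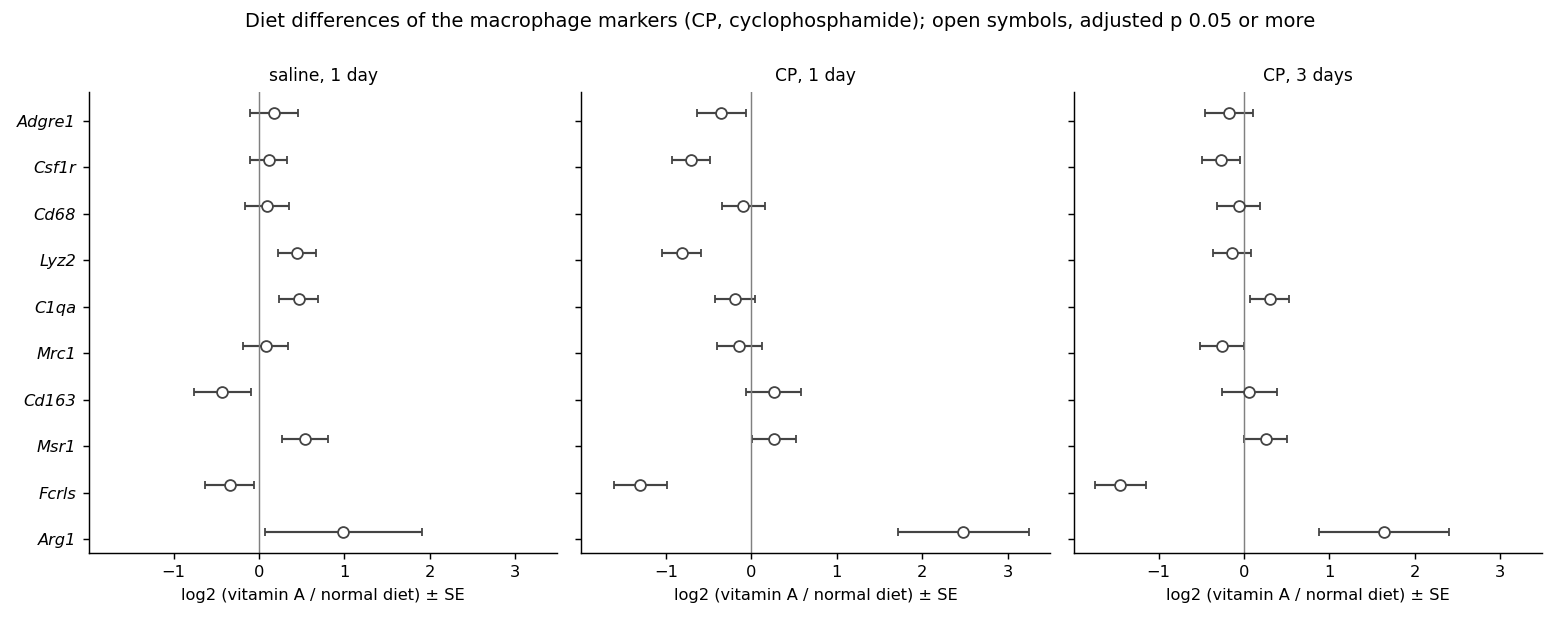
Log2 difference of the vitamin A over the normal diet with its standard error (x axes) for each marker gene (y axis) after saline, 1 day after cyclophosphamide and 3 days after cyclophosphamide. All symbols are open, since no adjusted p was under 0.05. Fcrls lies at -1.30 at 1 day and -1.45 at 3 days, and Lyz2 at -0.82 at 1 day.

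The other genes of the macrophage programme were counted in lists, beside all genes tested. At 1 day 10.2% of all genes rose and 9.05% fell on vitamin A, and 7.26% rose and 4.49% fell on the normal diet. At 3 days 4.32% rose and 1.67% fell on vitamin A, and 6.74% rose and 3.30% fell on the normal diet. The median log2 change of all genes lay between -0.01 and 0.01 in these comparisons. No list was tested as a set.

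Of the genes that feed or draw in macrophages, the chemoattractants Ccl2 and Ccl7, which recruit blood monocytes, rose on both diets and at both days. Among 12 tested growth factor and chemoattractant genes, 4 rose and 1 fell on vitamin A at 1 day, where 10.2% of all genes rose and 9.05% fell. The 1 fall is close to that share. On the normal diet 5 rose, where 7.26% of all genes rose. At 3 days 2 rose and 1 fell on vitamin A, where 4.32% of all genes rose and 1.67% fell, and 5 rose on the normal diet, where 6.74% rose. The list's median log2 change at 1 day was 0.86 on vitamin A and 0.26 on the normal diet. The log2 change of Ccl7 at 1 day was 3.56 on vitamin A and 4.24 on the normal diet, and that of Ccl2 3.05 on vitamin A and 3.49 on the normal diet. The ligands of the Csf1r product did not pass: Csf1 changed by log2 0.30 on vitamin A and 0.36 on the normal diet at 1 day, and Il34 by -0.36 and -0.25 in the same order. Ccl3 passed at 1 day on vitamin A (log2 change 4.32) and Ccl8 on the normal diet (3.43), whereas Ccl5, a chemokine of lymphocytes, fell on vitamin A at 1 day (-1.69).

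Of 20 other resident macrophage genes tested, 2 rose and 2 fell on vitamin A at 1 day, against 10.2% and 9.05% of all genes, so these counts did not stand out from the background. Normal-diet bladders showed 3 rises at 1 day, against 7.26% of all genes. At 3 days 8 rose on vitamin A and 10 on the normal diet, against 4.32% and 6.74% of all genes, and 0 fell. Their median log2 change at 3 days was 0.77 on vitamin A and 1.01 on the normal diet. Pf4 rose in all 4 comparisons with saline, by log2 1.67 on vitamin A and 1.63 on the normal diet at 1 day. Cx3cr1, the fractalkine receptor, fell on vitamin A at 1 day (log2 change -1.94) with Selenop (-1.24). Trem2, a lipid receptor of phagocytes, rose at 3 days by log2 2.10 on vitamin A and 2.87 on the normal diet, and Vsig4, a complement receptor, by 3.94 on vitamin A and 3.28 on the normal diet. Of the partner chains of C1qa, C1qc rose at 3 days by log2 0.92 on vitamin A and 1.14 on the normal diet, and C1qb rose by 1.10 on the normal diet while its 0.76 on vitamin A did not pass (adjusted p = 0.16). Cbr2 was lower on vitamin A than on the normal diet at 1 day (log2 difference -1.25, adjusted p = 0.014).

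Among 13 tested monocyte and inflammatory genes, 5 rose and 1 fell on vitamin A and 4 rose on the normal diet at 1 day, where 10.2% and 7.26% of all genes rose. At 3 days 4 rose and 1 fell on vitamin A, where 4.32% of all genes rose and 1.67% fell, and 5 rose on the normal diet, where 6.74% rose. The 1 fall on vitamin A at 1 day is close to the 9.05% of all genes that fell, and the list's median log2 change at 1 day was 1.47 on vitamin A and 1.12 on the normal diet. Il1rn, the interleukin-1 receptor antagonist, rose by log2 3.50 on vitamin A and 3.00 on the normal diet at 1 day, and Clec4d by 3.03 on vitamin A and 2.58 on the normal diet. Nos2, the nitric oxide synthase that uses the same substrate as arginase, fell on vitamin A at 1 day (log2 change -1.93) and 3 days (-1.89). Cd14, the lipopolysaccharide co-receptor, was higher on vitamin A than on the normal diet at 1 day (log2 difference 1.03, adjusted p = 0.035).

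Of 13 tested genes usually grouped with Arg1 as alternative activation markers, 2 rose and 3 fell on vitamin A at 1 day, against 10.2% and 9.05% of all genes. In normal-diet bladders 1 rose and 1 fell, close to the 7.26% and 4.49% of all genes. The list's median log2 change at 1 day was -0.24 on vitamin A and 0.37 on the normal diet. Il4ra rose by log2 1.39 on vitamin A and 1.10 on the normal diet, while Retnla (-4.85), Ear2 (-3.91) and the lectin gene Mgl2 (-2.75) fell on vitamin A. Ear2 was scarce, with 6 counts in all in the vitamin A group at 1 day and 129 after saline. Retnla ran from 14.3 to 73.2 CPM in the vitamin A saline libraries, against 5.35 to 17.3 CPM in the normal-diet saline libraries. In arginine and polyamine metabolism 3 of 15 tested genes rose on each diet at 1 day. Of all genes 10.2% rose on vitamin A and 7.26% on the normal diet. The rises included Odc1, which uses ornithine to make polyamines (log2 change 1.34 on vitamin A and 0.58 on the normal diet). On vitamin A 1 fell (Nos2), no more than the 9.05% of all genes. The second arginase gene, Arg2, changed by log2 -0.48 on vitamin A and -0.15 on the normal diet and did not pass.

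Of 18 phagocytic and Fc receptor genes tested, 3 rose on each diet at 1 day, against 10.2% of all genes on vitamin A and 7.26% on the normal diet, and 1 fell on vitamin A, where 9.05% of all genes fell. The list's median log2 change at 1 day was 0.14 on vitamin A and 0.44 on the normal diet. At 3 days 3 rose on vitamin A, where 4.32% of all genes rose, and 8 rose and 1 fell on the normal diet, where 6.74% rose and 3.30% fell. Fcgr1, the high-affinity IgG receptor, rose at 1 day by log2 1.92 on vitamin A and 2.63 on the normal diet. Fcer1g, its signalling chain, rose on the normal diet by log2 1.55 at 1 day, against 0.06 on vitamin A, which did not pass. Among 18 lysosome genes 3 rose and 3 fell on vitamin A at 1 day, where 10.2% of all genes rose and 9.05% fell. On the normal diet 5 rose at 1 day, where 7.26% of all genes rose. Lgmn rose in all 4 comparisons with saline, by log2 1.23 on vitamin A and 1.40 on the normal diet at 1 day.

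Of the genes of haem and iron handling, 3 of 9 rose on vitamin A and 4 of 9 on the normal diet at 1 day, where 10.2% and 7.26% of all genes rose. At 3 days 3 of 9 rose on each diet, where 4.32% of all genes rose on vitamin A and 6.74% on the normal diet. Hmox1, which breaks haem open, rose at 1 day by log2 2.64 on vitamin A and 2.46 on the normal diet. Hp, the haptoglobin whose complex with haemoglobin Cd163 binds, rose at 1 day by log2 5.62 on vitamin A and 3.79 on the normal diet. The 1-day libraries spread widely, from 24.0 to 455 CPM on vitamin A and from 13.5 to 44.7 CPM on the normal diet. The iron exporter gene Slc40a1 rose at 3 days by log2 1.10 on vitamin A and 0.81 on the normal diet.

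Of 13 macrophage transcription factor genes, Spi1, which encodes PU.1, changed by log2 -0.07 on vitamin A and 0.79 on the normal diet at 1 day, neither of which passed, and rose by 1.07 on the normal diet at 3 days. Irf8 fell in all 4 comparisons with saline, by log2 -1.04 on vitamin A and -0.53 on the normal diet at 1 day. Tfec rose by log2 2.13 on the normal diet at 1 day and by 2.09 on vitamin A and 2.35 on the normal diet at 3 days. In this list 1 gene rose and 1 fell on vitamin A at 1 day, no more than the 10.2% and 9.05% of all genes. Normal-diet bladders showed 4 rises and 1 fall, against 7.26% and 4.49% of all genes. Of 11 complement genes 3 fell on vitamin A and 1 fell on the normal diet at 1 day. Of all genes 9.05% fell on vitamin A and 4.49% on the normal diet, so the 1 fall says little. At 3 days 1 rose on vitamin A, where 4.32% of all genes rose, and 5 on the normal diet, where 6.74% rose.

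**Figure D5:**
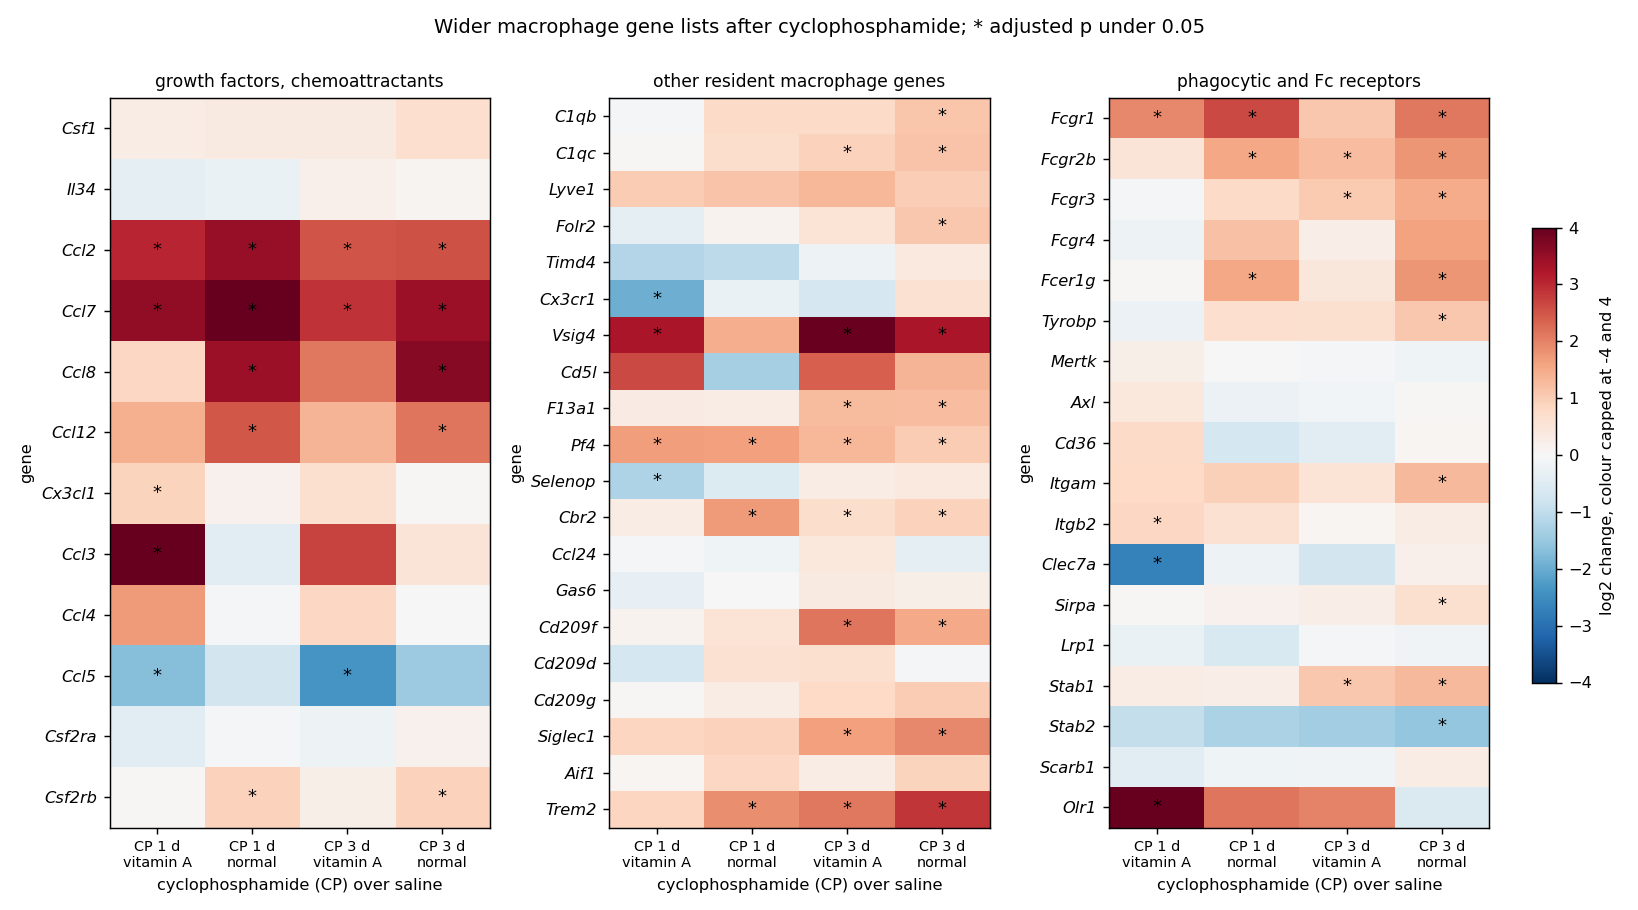
Log2 change after cyclophosphamide over saline (colour, red higher and blue lower, capped at -4 and 4) of growth factor and chemoattractant genes, other resident macrophage genes and phagocytic and Fc receptor genes (rows), with columns for vitamin A and the normal diet at 1 day and then at 3 days. Asterisks mark an adjusted p under 0.05. Ccl2 and Ccl7 are marked in all 4 columns, and Fcer1g in the normal-diet columns only.

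The summed levels of markers of other cells also varied between the groups. The summed level of 12 neutrophil markers was 3.19 to 5.38 CPM after saline, 9.02 to 32.3 CPM at 1 day and 4.63 to 9.25 CPM at 3 days on vitamin A, and 2.72 to 2.93, 5.16 to 14.0 and 5.45 to 11.3 CPM on the normal diet. The neutrophil granule genes Camp, Elane and Ngp never exceeded 0.319 CPM, and Ly6g had reads only in the vitamin A group at 1 day, at up to 0.154 CPM. Others of these markers had higher means at 1 day than after saline. Cxcr2 averaged 2.96 against 0.165 CPM on vitamin A and 2.21 against 0.0671 CPM on the normal diet. On vitamin A S100a9 averaged 6.51 against 0.0408 CPM and S100a8 2.71 against 0.149 CPM. On the normal diet the 1-day libraries of S100a9 and S100a8 overlapped saline. The Mpo mean was lower at 1 day than after saline on both diets, and that of Retnlg on vitamin A. The sum of 7 fibroblast markers was 5121 to 5714 CPM after saline, 1241 to 2989 CPM at 1 day and 4528 to 10055 CPM at 3 days on vitamin A. The normal-diet sums were 4918 to 5593, 1691 to 2557 and 6410 to 9580 CPM in the same order. The sum was therefore lowest at 1 day on both diets, as Csf1r and Lyz2 were. At 3 days the fibroblast markers did not move together. The Col3a1 mean was above saline on vitamin A (3408 against 1712 CPM) and on the normal diet (4102 against 1702 CPM). So were those of Col1a1 and Pdgfra. The Pi16 mean was below saline on vitamin A (67.1 against 238 CPM) and on the normal diet (73.9 against 260 CPM). So were those of Dcn and Dpt. The Lum mean was above saline on vitamin A and below it on the normal diet. The sum of 9 dendritic cell markers was 28.4 to 38.6 CPM after saline, 14.5 to 22.0 CPM at 1 day and 11.8 to 21.2 CPM at 3 days on vitamin A. The normal-diet sums were 24.7 to 29.1, 17.8 to 30.1 and 18.6 to 23.8 CPM, and the 1-day libraries overlapped saline. These markers did not all move together. At 1 day Ccr7 averaged 2.61 against 1.81 CPM on vitamin A, with overlap, and 4.14 against 0.705 CPM on the normal diet. The Batf3 means were also above saline. Those of Flt3, Zbtb46, Xcr1, Clec9a, Itgax and Siglech were below it on both diets, and that of Cd209a on vitamin A only. At 3 days the means of Batf3 on both diets and Zbtb46 on the normal diet were above saline, and the others below it. The sum of 9 T and natural killer cell markers was 7.51 to 31.3 CPM after saline, 0.772 to 2.86 CPM at 1 day and 2.54 to 3.59 CPM at 3 days on vitamin A. On the normal diet it was 5.69 to 13.7, 4.16 to 4.92 and 4.14 to 5.71 CPM in the same order. The sum of 6 B cell markers did not overlap between 1 day after cyclophosphamide and saline on vitamin A (2.78 to 7.18 against 11.6 to 29.9 CPM) and overlapped on the normal diet (3.15 to 27.6 against 10.9 to 18.1 CPM). Mast cell and eosinophil markers (9 genes) summed to 34.7 to 58.6, 8.49 to 25.3 and 12.1 to 27.8 CPM on vitamin A and to 39.4 to 49.8, 16.9 to 20.3 and 14.8 to 24.3 CPM on the normal diet. The sum was lower after cyclophosphamide in every library than in any saline library, but most of the saline sum was Kit. Kit averaged 31.6 CPM on vitamin A and 36.7 CPM on the normal diet after saline, and 7.53 and 7.07 CPM at 1 day. On the normal diet at 1 day the means of Mcpt4 (3.33 against 1.63 CPM), Cpa3 (2.03 against 1.67 CPM) and Tpsb2 (3.48 against 3.03 CPM) were above saline. That of Cma1 was below it (1.97 against 2.47 CPM). On vitamin A all of these means were lower at 1 day than after saline. Red blood cell markers (5 genes) summed to 95.7 to 247, 31.8 to 117 and 0.501 to 0.867 CPM on vitamin A and to 75.7 to 144, 23.8 to 39.3 and 0.941 to 1.44 CPM on the normal diet, so they were lowest at 3 days on both. Endothelial markers (7 genes) summed to 186 to 234, 192 to 229 and 227 to 392 CPM on vitamin A and to 210 to 242, 214 to 284 and 357 to 438 CPM on the normal diet, where the 3-day libraries lay above the others. The urothelial sum was lower at 1 day than after saline without overlap on both diets, at 4620 to 6800 against 7100 to 7801 CPM on vitamin A and 6208 to 7720 against 7884 to 8408 CPM on the normal diet. The genes of this sum did not move together. At 1 day Krt5 rose by log2 2.05 on vitamin A (adjusted p = 1.52e-06) and 0.98 on the normal diet (adjusted p = 0.00234). Trp63 did not pass on either diet. Upk2 and Krt20 fell on both diets, and Upk1a, Upk1b and Upk3a passed as falls on vitamin A only. The adipocyte sums of saline and each cyclophosphamide group overlapped on both diets, within 246 to 1455 CPM. Fabp4 made up most of these sums, with group means from 270 to 666 CPM. Adipoq ran from 1.08 to 49.3 CPM within the vitamin A group at 1 day. After saline Adipoq averaged 15.3 ± 10.9 CPM on vitamin A and 2.53 ± 3.69 CPM on the normal diet. Cfd averaged 110 ± 86.4 and 14.7 ± 23.1 CPM in the same order, and both genes overlapped between the diets. At 3 days the Adipoq means were 10.2 and 9.74 CPM. Sall1 and P2ry12, which mark the microglia where Fcrls is best known, reached at most 0.909 and 3.16 CPM. The part of these cells in the marker gene changes was not tested.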

How the data were processed

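The authors deposited raw read counts per gene, FPKM values, and tables with the log2 fold change, p-value and adjusted p-value of vitamin A against the normal diet in each condition. The submitters' processing notes name HISAT2 2.0.5, featureCounts 1.5.0-p3, DESeq2 1.20.0 and the build GRCm39. The strand setting of the counting is not given in the sources used here. In the deposited tables the log2 fold change is normal over vitamin A and was turned round here. A further 54 per-sample columns of those tables were not used.

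Counts of 46333 named genes were used, and unnamed features, 0.474% to 0.810% of the counts per library, were left out. CPM is a count over the library's total of named genes and carries no TMM factor. Tests were made on the deposited counts with edgeR 4.0.16 in R 4.3.3 (TMM scaling, filterByExpr, robust quasi-likelihood fit, 1 mean per group over all 18 libraries, 12 residual degrees of freedom), giving 19323 genes, with Benjamini-Hochberg adjustment over all of them in each of 11 contrasts and a threshold of 0.05. Every adjusted p in the text is from that fit unless DESeq2 (1.42.0), limma (3.58.1, on log2 of FPKM plus 0.1 or 1) or the authors' table is named. The median log2 change of all genes lay between -0.02 and 0.01 in the 11 contrasts. SE is the log2 change over the square root of F. "Without" a library means that the whole fit was repeated with that library left out.

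On simulated counts with 200 changed genes the fit recovered 47.8% of 2-fold and 69.7% of 4-fold changes for cyclophosphamide at 1 day on the normal diet. The labels do not say that replicates are separate cages or batches, so p-values measure only the spread between these mice. Arg1 counts (0 to 188) limit its precision most, and the other members had 38 to 18216 counts. The 10 members and the gene lists were chosen with earlier results of these data known. All 10 members are reported in every comparison, with the genes of each list that changed most or that partner a member and the 3 genes most like each member. Alternatives tried were other scalings, tools and filters, the replicate number as a block, only the libraries compared, and each library left out. Promoter sequences come from RefSeq in GRCm38.p6, and positions of genes from the count table in GRCm39. Mice ate a diet that the labels describe as retinyl acetate and the series text as retinyl palmitate at 36 times the usual amount of the vitamin.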

Additional observations from a re-analysis of the deposited data

How the results depend on the processing

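Of the 110 pairs of a marker gene and a comparison, 58 had an unadjusted p under 0.1. Their 1682 values under the alternatives kept the sign in every case and the side of the threshold in 1567, with 67 calls lost and 48 gained. The other 52 pairs gave 1508 values, of which 1 passed the threshold and 62 changed sign, none with an adjusted p below 0.497. The calls lost or gained for single genes stand beside them in the report. The cause of the moves below was not tested, unless fewer samples entered the fit.

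The counts of marker genes past the threshold moved as follows. With only the libraries compared in the fit, the count was 5 in place of 3 for cyclophosphamide at 1 day on the normal diet, 2 in place of 6 at 3 days on vitamin A, 4 in place of 1 for 3 days against 1 day on the normal diet and 1 in place of 4 for that comparison on vitamin A. DESeq2 gave 2 in place of 1 for 3 days against 1 day on the normal diet, 3 in place of 0 for the diets at 1 day, 1 in place of 0 for the diets at 3 days and 1 in place of 0 for the interaction at 1 day. With no filter on low counts the count was 2 for 3 days against 1 day on the normal diet. With both libraries that stood apart left out it was 2 for 3 days against 1 day on vitamin A. Leaving out 1 library at a time gave 3 to 7 at 3 days on vitamin A (3 without replicate 1 or 2 of vitamin A saline), 4 to 8 at 3 days on the normal diet, 7 to 8 and 2 to 4 at 1 day on vitamin A and the normal diet, 3 to 4 and 1 to 2 for 3 days against 1 day, 0 to 1 for the diets at 1 day and 0 for the other diet and interaction comparisons.

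Replicate numbers did not pair the mice: of 45 same-numbered pairs 2 had correlated deviations over 0.1 (range -0.11 to 0.18), and 5 of 18 libraries correlated best with their own number. With the replicate number as a replicate block the count was 2 in place of 1 for 3 days against 1 day on the normal diet (Csf1r added, adjusted p = 0.0497) and 7 in place of 6 at 3 days on that diet (Adgre1 added, adjusted p = 0.0491).

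Over all genes, the counts past the threshold moved by over 1.5 times in some settings. With only the libraries compared, they were 4405 against 2271 at 1 day and 3718 against 1940 at 3 days on the normal diet, 509 against 1156 at 3 days on vitamin A, 705 against 278 and 20 against 819 for 3 days against 1 day on the normal diet and vitamin A, 37 against 2 and 9 against 90 for the diets after saline and at 1 day, and 19 against 0 for the interaction at 1 day. DESeq2 gave 1766 against 1156 at 3 days on vitamin A, 664 against 278 and 1726 against 819 for 3 days against 1 day, 17 against 2, 499 against 90 and 11 against 1 for the diets after saline, at 1 day and at 3 days, and 120 and 87 against 0 for the interactions. No filter gave 7 against 2 for the diets after saline, 0 against 1 for the diets at 3 days and 25 and 9 against 0 for the interactions. With both libraries that stood apart left out they were 3642 against 2271 at 1 day on the normal diet, 502 against 278 and 253 against 819 for 3 days against 1 day, 0 against 1 for the diets at 3 days and 10 against 0 for the interaction at 1 day. FPKM values with a pseudocount of 1 gave 154 against 90 for the diets at 1 day, 2 against 1 at 3 days and 1 against 0 for the interaction at 1 day. For the diets at 3 days, the block and the FPKM values with a pseudocount of 0.1 each gave 0. Leaving out 1 library moved the all-gene counts, and with them the shares of all genes printed beside the markers, by over 1.5 times in every comparison but 1 day on vitamin A (2510 to 4803 against 3727). On the normal diet they were 1250 to 3318 against 2271 at 1 day (lowest without saline replicate 3) and 967 to 2583 against 1940 at 3 days (lowest without 3-day replicate 1). On vitamin A at 3 days they were 680 to 1705 against 1156 (lowest without saline replicate 2). For 3 days against 1 day they were 326 to 1357 against 819 on vitamin A (lowest without 1-day replicate 3, highest without 3-day replicate 3) and 74 to 409 against 278 on the normal diet (lowest without 1-day replicate 1). For the diets they were 0 to 5 against 2 after saline (0 without normal replicate 1), 0 to 302 against 90 at 1 day (0 without normal replicate 1, 302 without vitamin A replicate 1) and 0 to 1 against 1 at 3 days. The interactions gave 0 to 44 at 1 day and 0 to 24 for time, against 0, both highest without vitamin A replicate 1 at 1 day.

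With 3 mice a group, differences under 2-fold are mostly below what the tests detect, and an adjusted p above 0.05 does not show that the diets act alike. Whole-bladder RNA does not resolve cell numbers from transcript levels, and since mice were housed 3 to a cage, with cages not given per mouse, cage cannot be told apart from diet, treatment or day.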
